A study of Mus musculus with 24 samples.

Results

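The calsyntenins Clstn1, Clstn2 and Clstn3 and the calcium-binding protein gene S100b were followed in mouse brown adipose tissue (BAT) and white adipose tissue (WAT). They are 4 of the 30699 genes listed in the deposited data. The members were taken by gene name as a family and its reported partner, and Clstn3 was chosen for its low p and lower mean in WAT with antimiR-224. The values of all 4 members in that comparison are therefore a description without a test. All animals were C57BL/6 mice. They received 2 injections under the skin at 25 mg/kg of an oligonucleotide modified with locked nucleic acid. One agent inhibits miR-224 (antimiR-224), another inhibits miR-452 (antimiR-452), and scramblemiR, with a scrambled sequence, is the control. Each tissue had 4 antimiR-224, 4 antimiR-452 and 4 scramblemiR libraries, 24 in all, made from oligo-dT selected RNA of whole tissue. The labels do not say that the libraries of a group came from separate mice, so p-values measure the spread between these libraries, which may be technical. Age and sex were not stated by the labels. Mature miRNAs are not measured by such libraries, so the inhibition itself was not checked here.

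Calsyntenins are membrane proteins with cadherin repeats, first studied in neurons, where Clstn1 links vesicles to the kinesin-1 motor and Clstn2 and Clstn3 act at synapses. Mouse adipocytes also make a shorter product of the Clstn3 gene, called Clstn3b, which sits where the endoplasmic reticulum meets lipid droplets. In mouse brown fat Clstn3b has been reported to help the release of S100b, a secreted S100 protein that acts on sympathetic nerve fibres, and S100b is also a marker of Schwann cells. Counts per gene cannot separate Clstn3b from the longer Clstn3 transcripts.

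The sequences of both targeted miRNAs show where a direct match could lie. Mature sequences from RefSeq (GRCm38.p6, X chromosome, minus strand) are given 5′ to 3′ with the seed, bases 2 to 8, in capitals. The labels do not name the arm, and the 5p arm is shown.
mmu-miR-224-5p: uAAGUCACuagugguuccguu
mmu-miR-452-5p: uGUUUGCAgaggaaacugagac
The longest annotated 3′UTR of each member (GENCODE M21) was searched for the 7 letters that pair with each seed, on the transcript strand only. GTGACTT, for miR-224-5p, was in none of the 4 members' 3′UTRs, and 12.8% of all 20999 genes' 3′UTRs held it. TGCAAAC, for miR-452-5p, was in none of the 4 either, and 9.73% of all held it. The 3p seeds were searched as well. The letters for miR-452-3p, GAGACTG, were in none of the 4, beside 12.7% of all genes. Those for miR-224-3p, CACCATT, occurred once, in Clstn1, within the stretch chr4:149647713-149647741 on the plus strand, and in 9.23% of all genes. That stretch of the Clstn1 3′UTR is shown with the match in capitals.
Clstn1 3′UTR: tccccgcccatCACCATTgcagttttgct
No match says only that these letters are not in these 3′UTRs. The 3′UTRs of Clstn1, Clstn2, Clstn3 and S100b were 1335, 1283, 833 and 1091 bases long, so a match had unequal room.

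The 4 genes lie on different chromosomes (GRCm38, GENCODE M21). Clstn1 (ENSMUSG00000039953) lies at chr4:149586468-149648899 on the plus strand and Clstn2 (ENSMUSG00000032452) at chr9:97444395-98033181 on the minus strand. Clstn3 (ENSMUSG00000008153) lies at chr6:124430759-124464794 on the minus strand and S100b (ENSMUSG00000033208) at chr10:76253853-76261159 on the plus strand. No exon of another annotated gene overlapped an exon of any of the 4. Clstn3 and S100b, the pair that varied together in BAT, are shown by the RefSeq promoter window (GRCm38.p6), from 250 bases before to 50 bases after an annotated start. RefSeq gives Clstn3 a second window, chr6:124462695-124462994, minus strand, with 53% G or C and no match to the motif below, which is not printed. Whether either window belongs to the shorter Clstn3b product was not examined. The Clstn3 window shown is chr6:124464735-124465034, minus strand, and the S100b window is chr10:76253586-76253885, plus strand.
Clstn3 promoter: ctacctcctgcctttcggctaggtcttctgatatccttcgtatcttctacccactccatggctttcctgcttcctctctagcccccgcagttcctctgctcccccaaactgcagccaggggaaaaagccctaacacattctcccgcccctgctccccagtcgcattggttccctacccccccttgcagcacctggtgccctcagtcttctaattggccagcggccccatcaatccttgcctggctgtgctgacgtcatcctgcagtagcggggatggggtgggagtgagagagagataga
S100b promoter: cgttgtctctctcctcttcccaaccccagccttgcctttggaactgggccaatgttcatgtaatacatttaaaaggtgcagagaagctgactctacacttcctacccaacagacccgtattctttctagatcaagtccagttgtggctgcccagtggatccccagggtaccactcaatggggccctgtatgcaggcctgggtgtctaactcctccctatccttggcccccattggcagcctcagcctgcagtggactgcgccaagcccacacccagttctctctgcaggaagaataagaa
Neither window held AGGTCA or its other strand, TGACCT, a motif known for nuclear receptors such as PPARs. Of 32851 RefSeq promoter windows, 16.3% held it. The Clstn3 window was 58.3% and the S100b window 53.7% G or C, against a median of 52.7% over all windows, while the Clstn1 window reached 79.7% and the Clstn2 window 72.7%.

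Reads per library were recovered from the deposited group means for every member, as described under the processing. Values below are normalized counts, the reads divided by the size factor of the library, and libraries are numbered within a group by descending size factor. ScramblemiR libraries held 16960594 to 20255651 reads in genes in BAT and 22175430 to 27935908 in WAT. The totals of the inhibitor libraries are not known, because their most abundant genes were not recovered. Some libraries stood apart. Of a list of 12 less abundant skeletal muscle genes, the summed count was 10629 in BAT antimiR-224 library 1, 47817 in BAT antimiR-452 library 1, and 21763 and 18820.0 in BAT scramblemiR libraries 1 and 2. It was 80.5 to 287 in the other antimiR-224 libraries, 21.1 to 2618 in the other antimiR-452 libraries and 33.7 and 40.2 in the other scramblemiR libraries. In WAT, 16 spermatid genes summed to 13879 and 4703 in antimiR-224 libraries 3 and 4 and to 46250.3 in scramblemiR library 2, against 1559.8 to 2323 in the other libraries of that table. WAT antimiR-452 library 3 was high in the full list of 16 muscle genes, at 18179. The labelled tissues carried their defining markers in the authors' deposited tables. Ucp1, the uncoupling protein of brown fat, averaged 96156 in BAT antimiR-224 and 86679 in BAT scramblemiR libraries, and 4.49 in WAT antimiR-224 and 49.7 in WAT scramblemiR libraries, where library 1 had 179.6 and the others 1.04 to 12.6. In bulk tissue, fewer cells of a type and less RNA per cell cannot be told apart.

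The family differed between the fat depots. In the scramblemiR libraries Clstn3 and S100b were higher in BAT, and Clstn1 and Clstn2 were higher in WAT. Levels were compared as CPM, reads scaled to the total of reads in genes of each library, without a test, since both tissues were normalized separately. The share of all genes without overlap between the depots is not given here. A lack of overlap below is therefore not read as particular to these genes. Clstn3 had 163, 268, 424 and 361 CPM in BAT, against 48.4, 26.9, 29.0 and 50.6 in WAT. All 4 BAT values were above all WAT values, and the BAT mean was 7.85-fold the WAT mean. S100b had 24.7, 40.2, 51.4 and 43.3 CPM in BAT, against 1.29, 1.17, 0.381 and 0.406 in WAT. The ranges lay far apart, the ratio of means was 49.2, and the WAT values rest on 9 to 36 reads a library. Clstn1 had 39.7, 49.3, 56.7 and 40.7 CPM in BAT, against 109, 119, 99.5 and 105 in WAT, without overlap. Clstn2 had 0.901, 1.28, 0.118 and 0.727 CPM in BAT, against 3.58, 4.08, 4.70 and 7.08 in WAT. The BAT values of Clstn2 rest on 2 to 26 reads a library and lay below all WAT values. For Clstn1 and Clstn2 the BAT mean was 0.43 and 0.156 of the WAT mean. The low BAT library for both Clstn3 and S100b was scramblemiR library 1, one of the libraries high in muscle genes, and its part in the difference was not tested.

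Levels of different genes were compared per kilobase of annotated exon. In BAT Clstn3 averaged 61.2 ± 22.9 CPM per kilobase, S100b 26.9 ± 7.54, Clstn1 9.99 ± 1.71 and Clstn2 0.133 ± 0.0853 (SD, n = 4). In that order Clstn3 and S100b overlapped slightly, at 32.8 to 85.2 and 16.6 to 34.6, while the steps to Clstn1 and to Clstn2 showed no overlap. In WAT the order was Clstn1, at 23.2 ± 1.79, then Clstn3, at 7.79 ± 2.52, Clstn2, at 0.854 ± 0.272, and S100b, at 0.546 ± 0.326 (SD, n = 4). Only Clstn2 and S100b, the lowest in WAT, overlapped there. Clstn3 made up 85.8% of the summed calsyntenin level per kilobase in BAT and 24.4% in WAT, and Clstn1 made up 14% in BAT and 72.9% in WAT. The length used for Clstn3 covers all its annotated exons, and reads of the shorter Clstn3b are counted with it. Its level per kilobase and these shares therefore need not hold for the longer Clstn3 transcripts.

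**Figure D1:**
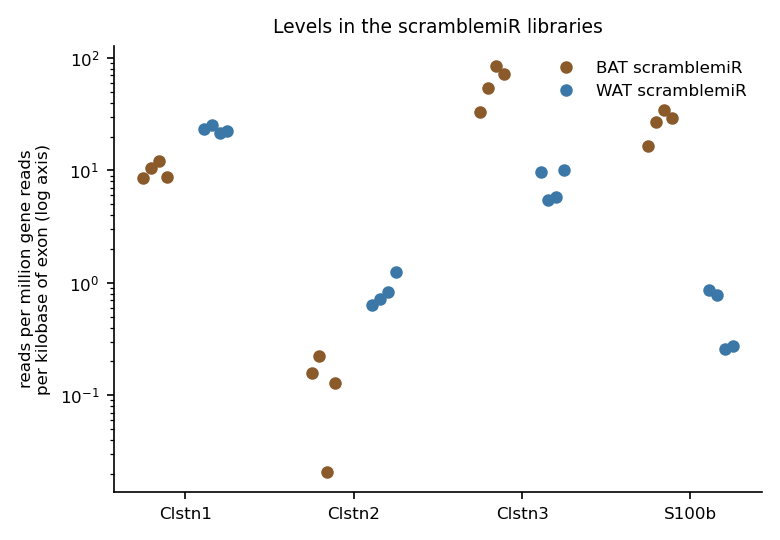
CPM per kilobase of exon (vertical, log axis) for each member in 4 BAT and 4 WAT scramblemiR libraries, 1 point a library. Clstn3 and S100b were higher in BAT (Clstn3 61.2 against 7.79 on average), Clstn1 and Clstn2 higher in WAT.

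In WAT with antimiR-224 Clstn3 had a lower mean, while Clstn1 and Clstn2 lay among their controls. Clstn3 had normalized counts of 256, 230.3, 368 and 289 in the antimiR-224 libraries, against 1197, 564, 713 and 1289 in the scramblemiR libraries. The highest antimiR-224 library lay below the lowest scramblemiR library. The means were 286 ± 59.6 with antimiR-224 and 941 ± 356 with scramblemiR (SD, n = 4 each), a log2 difference of -1.65 ± 0.28 (SE), and the authors' deposited table gives a log2 ratio of -1.72, the third smallest p of 29128 genes, 9.51e-05, and an adjusted p of 0.795. Groups that did not overlap in this direction were found for 1.75% of 17666 genes, and nothing is read from that here, because the gene was chosen on this contrast. Of the deposited genes 0.00343%, 1 of 29128 and no member, passed an adjusted p of 0.05, and 1.55% (452) passed 0.05 before adjustment. Limma, a linear model fitted across all genes, called 0 (0%) of 17666, and 6.23% (1101) passed 0.05 before adjustment.

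In WAT with antimiR-224 the remaining members overlapped with their controls. Clstn1, the kinesin adaptor, had 3015, 2720.3, 2333 and 2325 in the antimiR-224 libraries, against 2704, 2502, 2448 and 2682 in the scramblemiR libraries. Clstn2 had 133, 114, 105 and 166 with antimiR-224, against 88.5, 85.5, 116 and 180.3 with scramblemiR. The antimiR-224 minus scramblemiR difference on the log2(count + 1) scale was 0.00068 ± 0.113 for Clstn1 and 0.18 ± 0.28 for Clstn2 (SE). S100b had 41.8, 72.9, 25.1 and 43.2 with antimiR-224, against 31.9, 24.4, 9.38 and 10.3 with scramblemiR. Its antimiR-224 mean was higher and only the lowest antimiR-224 library lay under the highest scramblemiR library, with 23 to 75 reads a library behind the antimiR-224 values. The direction of S100b was thus opposite to that of Clstn3 in the same libraries.

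Markers of other cells moved beside Clstn3 in this comparison. Mature adipocyte genes, 14 of 14, lay below 0 on the deposited log2 scale. Their median was -0.47, and that of all 17903 genes with a mean of at least 10 was -0.02. The 3 of them recovered per library summed to 9311 to 18098 with antimiR-224 and to 12021 to 26261 with scramblemiR. Of 14 tubule and simple epithelium genes measured, 14 were above 0, with a median of 2.72. The 16 recovered genes of that list summed to 2948 to 18476 with antimiR-224, against 1600.0 to 2809.5 with scramblemiR. Of 9 measured brown adipocyte genes, 6 were below 0, and their median was -0.54. The 11 recovered brown adipocyte genes summed to 2997 to 4845 with antimiR-224 and 3024 to 4398 with scramblemiR, and Lhx8 was at 0 in all 4 antimiR-224 libraries. Of these 11 genes 9 reached a mean of 10. The scramblemiR values of Lhx8 are not given here, so nothing is read from its 0. By geometric mean that brown list was highest in scramblemiR libraries 1 and 4, at 123 and 99.5, the same libraries in which Clstn3 was highest. Without those libraries the log2 difference of Clstn3 was -1.17. Without the libraries high in spermatid genes it was -2.08, and limma then called 1368 genes. The part of these cells in the lower Clstn3 was not tested. Beside S100b, 11 of 16 measured Schwann cell genes were above 0, with a median of 0.21, and the 20 recovered ones summed to 12138 to 14014 with antimiR-224, against 11889 to 15785 with scramblemiR.

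With antimiR-452 in WAT, which was set against the same scramblemiR libraries, no member passed the test. Clstn3 had 404, 507, 584 and 888 in the antimiR-452 libraries, against 1198, 568, 718 and 1300.3 in the scramblemiR libraries on the scale of that table. Its mean was lower, but the groups overlapped. The log2 difference was -0.64 ± 0.32 (SE; 95% interval -1.37 to 0.08), with a limma adjusted p of 0.998 and an exact two-sided permutation p of 0.171, where 4 against 4 cannot give less than 0.0286. Without scramblemiR libraries 1 and 4 the difference was -0.16. S100b had 35.4, 46.6, 47.5 and 22.2 with antimiR-452, against 31.9, 24.6, 9.45 and 10.4 with scramblemiR. Only 1 antimiR-452 library lay below the highest scramblemiR library, and the log2 difference was 1.07 ± 0.50 (SE; 95% interval -0.05 to 2.19; limma adjusted p 0.998, exact permutation p 0.0857).

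Clstn1 had 3567, 2580.3, 2840.0 and 2284 with antimiR-452, against 2705, 2520.1, 2466 and 2706 with scramblemiR. Its interval, -0.24 to 0.43 on the log2 scale, was the narrowest of the 4 members in this comparison. Clstn2 had 131, 125, 141 and 102 with antimiR-452, against 88.6, 86.1, 117 and 182 with scramblemiR. The exact permutation p was 0.629 for both Clstn1 and Clstn2. Here limma called 0 (0%) of 17585 genes, or 543 without antimiR-452 library 4, and the authors' deposited adjusted p called 0 (0%) of 29079. Before adjustment 4.48% (787) passed 0.05 by limma and 2.41% (702) in the deposited table. All inhibitor libraries were below all controls for 0.671% of genes and above them for 1%, and no member was among these. A p that misses the threshold does not show that these genes were alike in both groups. Several marker lists moved beside the members. Skeletal muscle genes were above 0 in 14 of 15, with a median of 3.05, and summed to 18179 in antimiR-452 library 3, 834 to 3819 in the other antimiR-452 libraries and 1141 to 1705 in scramblemiR libraries. Spermatid genes were below 0 in 16 of 16, with a median of -4.78, with scramblemiR library 2 the high one. Mature adipocyte genes were again below 0 in 14 of 14, with a median of -0.30, and 13 of 14 tubule and simple epithelium genes were above 0, with a median of 2.74. The part of these lists in the member values was not tested.

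**Figure D2:**
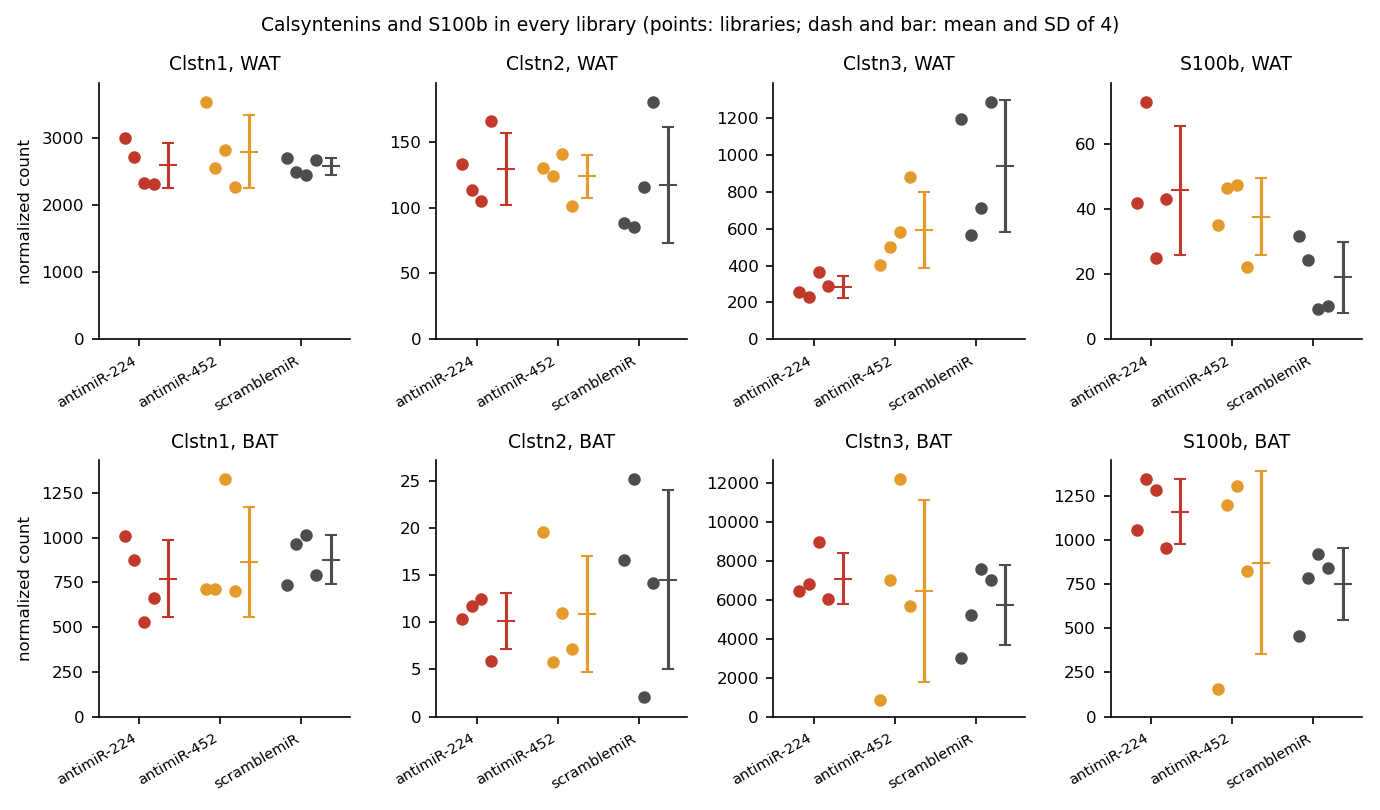
Normalized counts of each member (vertical axis) in every library, on the scale of the antimiR-224 table of each tissue, for antimiR-224, antimiR-452 and scramblemiR; points are libraries, the dash and bar give the mean and SD of 4. Clstn3 in WAT was lowest with antimiR-224 (230.3 to 368), and in BAT 1 antimiR-452 library was low in both Clstn3 and S100b.

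In BAT with antimiR-224, S100b was the member that stood out from its controls. It had 1059, 1347, 1285 and 959 in the antimiR-224 libraries, against 456, 788, 922 and 843 in the scramblemiR libraries. All 4 antimiR-224 libraries were above all 4 scramblemiR libraries, as was the case for 2.62% of 14297 genes in that direction. The log2 difference was 0.66 ± 0.24 (SE; 95% interval 0.13 to 1.2), the exact two-sided permutation p was 0.0286, the smallest that 4 against 4 can give and 1 of 12 such tests, and the limma adjusted p was 0.736. After adjustment over all genes the difference therefore did not pass the threshold. The authors' deposited p was 0.0656, with 421st place among 24084 genes. Without the 3 libraries high in muscle genes, the remaining antimiR-224 libraries were still above the remaining scramblemiR libraries, with a log2 difference of 0.43. Without scramblemiR library 1 alone it was 0.44.

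Clstn3 had 6483, 6841, 8992 and 6051 in BAT with antimiR-224, against 3009.6, 5249, 7604 and 7019 with scramblemiR. The antimiR-224 mean was higher, the groups overlapped, and the log2 difference was 0.38 ± 0.29 (SE; 95% interval -0.27 to 1.03; limma adjusted p 0.748, exact permutation p 0.343). Without the libraries high in muscle genes it was -0.0223. Clstn1 had 1012, 878, 529 and 664 with antimiR-224, against 733, 965, 1017 and 791 with scramblemiR, and the values mixed. Clstn2 had 10.4, 11.7, 12.5 and 5.83 with antimiR-224, against 16.6, 25.1, 2.12 and 14.1 with scramblemiR, from 2 to 26 reads a library. At that depth only large changes of Clstn2 could be seen, as its log2 interval of -1.67 to 1.32 shows. No calsyntenin was without overlap here, as 1.25% of genes were with all antimiR-224 libraries lower. Limma called 0 (0%) of 14297 genes, or 9 without the libraries high in muscle genes, and the authors' deposited adjusted p called 0 (0%) of 24084. Before adjustment 5.89% (842) passed 0.05 by limma, S100b among them at 0.0207, and 1.15% (276) in the deposited table.

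Markers of nerve sheath and muscle did not run parallel to S100b in this comparison. Of 16 measured Schwann cell genes 15 lay below 0 on the deposited log2 scale, at a median of -0.51, and the median of all genes was -0.05, so the list was lower where S100b was higher. The 20 recovered Schwann cell genes summed to 2667 to 5047 with antimiR-224 and to 2885 to 5593 with scramblemiR. Sox10, which defines Schwann cells, had 12.8 to 44.7 with antimiR-224, against 26.5 to 52.2 with scramblemiR. Of 16 muscle genes 16 were below 0, with a median of -1.83. Of 14 mature adipocyte genes 12 were above 0, with a median of 0.25. The part of the adipocyte and muscle genes in the S100b values was not tested.

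In BAT with antimiR-452 a single library decided the values of Clstn3 and S100b. Clstn3 had 841, 7088, 12298 and 5712 in the antimiR-452 libraries, against 3029, 5273, 7601 and 7153 in the scramblemiR libraries. S100b had 159, 1210.0, 1316 and 833 with antimiR-452, against 459, 792, 922 and 859 with scramblemiR. Library 1 was the lowest of all 12 BAT libraries for both genes and highest in muscle genes. Of the brown fat genes Elovl3 and Dio2 it had 158 and 982. On the scale of the antimiR-224 table the scramblemiR libraries had 1023 to 4316 of Elovl3 and 4601 to 11652 of Dio2. The rest of the brown adipocyte list is not given for library 1. The log2 difference was -0.26 ± 0.75 for Clstn3 and -0.11 ± 0.63 for S100b (SE), with a limma adjusted p of 0.999 for each and exact permutation p of 0.857 and 0.943. Without library 1 the differences were 0.55 for Clstn3 and 0.58 for S100b, the opposite direction. The ratio of means in the authors' deposited table, which weights the abundant libraries more, was above 0 on the log2 scale for both, at 0.17 and 0.21.

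Clstn1 had 721, 721, 1337 and 709 with antimiR-452 in BAT, against 738, 969.6, 1017 and 806 with scramblemiR. A single antimiR-452 library lay above all controls and the other 3 below all of them, with an exact permutation p of 0.743. Clstn2 had 19.7, 5.83, 11 and 7.24 with antimiR-452, against 16.7, 25.3, 2.12 and 14.4 with scramblemiR, and the groups mixed (exact permutation p 0.886). All antimiR-452 libraries were below all controls for 1.47% of genes and above them for 1.73%, and no member was among these. Limma called 0 (0%) of 14398 genes and the authors' deposited adjusted p 0 (0%) of 24248. Before adjustment 3.91% (563) passed 0.05 by limma and 0.499% (121) in the deposited table, again with no member.

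**Figure D3:**
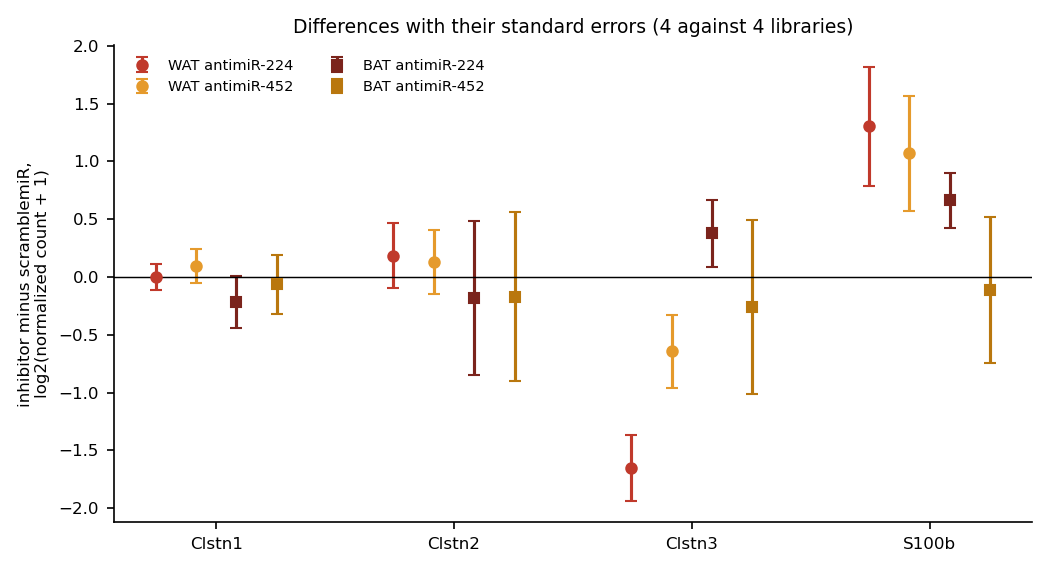
Difference between inhibitor and scramblemiR libraries on the log2(normalized count + 1) scale (vertical axis) for each member in 4 comparisons, with bars of 1 SE. S100b was above 0 in 3 of 4 comparisons, and Clstn3 ranged between -1.65 (WAT, antimiR-224) and 0.38 (BAT, antimiR-224).

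Whether an inhibitor's difference was unlike in both depots was fitted as an interaction, BAT minus WAT. For Clstn3 and antimiR-224 it was 2.03 ± 0.42 on the log2 scale (SE), a value that contains the contrast on which the gene was chosen and is given as a description. For S100b and antimiR-452 it was -1.18 ± 0.81 (limma adjusted p 0.85), or -0.48 without BAT antimiR-452 library 1. For S100b and antimiR-224 it was -0.64 ± 0.54, or -0.38, -0.43 and -0.39 without WAT scramblemiR library 3, WAT scramblemiR library 4 or WAT antimiR-224 library 2. For Clstn3 and antimiR-452 it was 0.38 ± 0.87 (limma adjusted p 0.961). The intervals of Clstn1 were -0.79 to 0.47 for antimiR-452 and -0.76 to 0.33 for antimiR-224, and those of Clstn2 were wider. In these limma fits 0 of 13779 genes were called for antimiR-224, where 1216 passed 0.05 before adjustment, and 0 of 13875 for antimiR-452, where 770 did. Some library numbers in the column headers occur in both depots under the same treatment. Whether such libraries shared an animal is not stated, and the fits treated all libraries as independent. Their SE, intervals and p-values therefore take no account of a pairing.

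Clstn3 and S100b varied together over the 12 BAT libraries. Pearson's r on the log2 scale was 0.967 (permutation p 0.00011, adjusted over 5 relations 0.00055) and Spearman's rho was 0.79 (permutation p 0.00326, adjusted 0.0163). Without the 2 libraries farthest from the median of Clstn3, antimiR-452 library 1 and scramblemiR library 1, r was 0.676 over 10 libraries (permutation p 0.0224). Both of those libraries were high in muscle genes, and without all 4 such libraries r was 0.604 over 8. After subtracting the group means r was 0.979, with the libraries high in muscle genes still included. A value within treatments without those libraries is not given here. The size of r thus rests in part on libraries that stand apart. S100b stood 46th among 11424 genes by its r with Clstn3, so 0.394% of genes followed Clstn3 more closely.

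In WAT the same pair ran the opposite way. Clstn3 and S100b had r = -0.671 and rho = -0.643 over 12 libraries. The WAT relations include the contrast on which Clstn3 was chosen, so they are given as a description with no p. Without scramblemiR library 4 and antimiR-224 library 2, the farthest in Clstn3, r was -0.414, and after subtracting the group means -0.371. Without scramblemiR libraries 1 and 4 it was -0.67, so the value depends on which libraries are left out.

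Cidea, a lipid droplet protein typical of brown fat, was highest in the WAT libraries with most Clstn3. Cidea had 71.5, 82.6, 50.2 and 54.3 in WAT antimiR-224 libraries and 56.4, 88.4, 85.5 and 152 in antimiR-452 libraries, against 414, 43.2, 43.8 and 292 in scramblemiR libraries. ScramblemiR libraries 1 and 4 were high in both genes, and within the antimiR-224 group Cidea did not follow Clstn3. Over 12 libraries r was 0.688 and rho 0.476. Without the farthest 2 in Clstn3, r was 0.668, but without scramblemiR libraries 1 and 4 it was 0.219. The relation thus rests on those 2 control libraries.

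**Figure D4:**
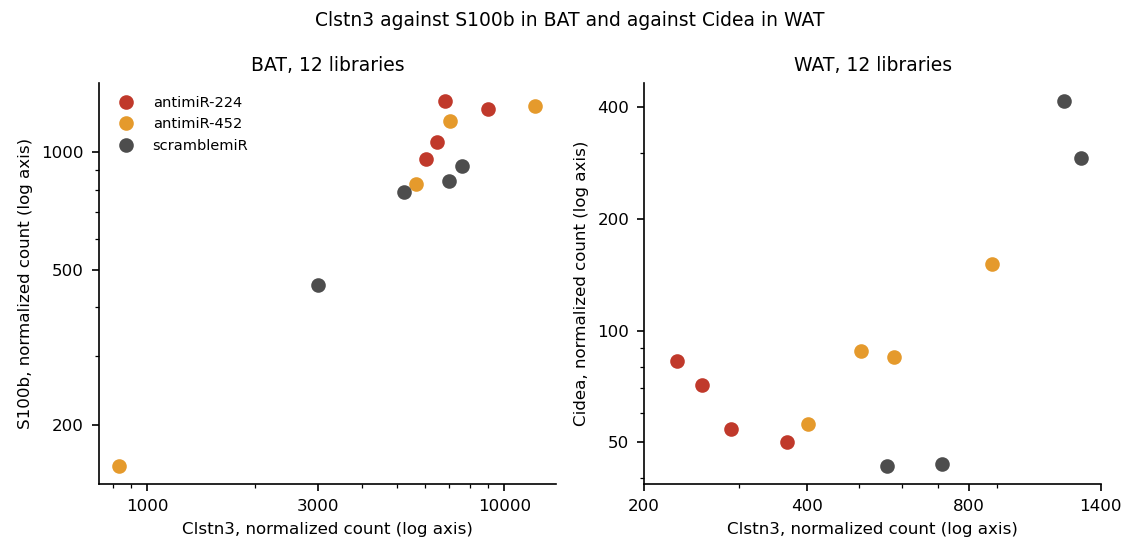
Clstn3 (horizontal, log axis) against S100b in BAT and against Cidea in WAT (vertical, log axis), in normalized counts, 1 point for each of 12 libraries, coloured by treatment. In BAT the points follow a line (r = 0.967) with 1 antimiR-452 library far below, and in WAT the 2 scramblemiR libraries with most Clstn3 hold most Cidea.

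The genes whose pattern was most like each member were found by Pearson's r over the 12 libraries of a tissue, as a description. These libraries share treatments and tissue makeup. In WAT, among 13847 genes, Clstn3 was most like Slc2a4, the insulin-responsive glucose transporter, at r = 0.966, then Cldn22 at 0.961, Miga2, which tethers mitochondria to other organelles, at 0.956, 1700096K18Rik at 0.937 and Sh3glb2 at 0.936. In BAT, among 11424 genes, the genes most like it included Uck1 at 0.992, Gnb1, a G protein subunit, at 0.991, Igsf21 at 0.989 and Slc25a5, a mitochondrial ADP/ATP carrier, at 0.986. S100b in BAT was most like Cyp4f16 at 0.984, 4921531C22Rik, Pts at 0.974, Zcwpw1 at 0.968 and Clstn3 itself at 0.967. In WAT it was most like Tma16 at 0.93, Zfp719 at 0.911, Steap2 at 0.91, Mgp, an inhibitor of calcification, at 0.884 and Aifm3 at 0.884.

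Clstn1 in WAT was most like Btbd3 at 0.941, Armcx4 at 0.908, Prickle2, a planar polarity gene, at 0.908, Zfp362 at 0.904 and Rtl5 at 0.898. In BAT it was most like Pip5k1c at 0.96, Sec14l1 at 0.941, Tln1, the integrin-binding protein talin, at 0.922, Pacs1 at 0.914 and Med15 at 0.913. Clstn2, the rarest calsyntenin, reached lower values, from 0.851 for Hsd17b7 to 0.822 for Akr1b10 in WAT, with Tmem101, Arpc1b and Lgals3bp between. In BAT they ran from 0.847 for Mtap to 0.758 for 5930430L01Rik, with Klf10, Dok7 and Phykpl between. Among the members themselves, r between Clstn1 and Clstn3 was -0.18 in WAT and 0.292 in BAT, and between Clstn2 and Clstn3 -0.132 in WAT and -0.418 in BAT.

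Genes that work with the calsyntenins showed no call in any comparison. The list held 23 genes of binding partners and cleavage, among them App, the kinesin light chains, the secretases and the neurexins. In WAT with antimiR-224, 13 of 22 genes with a mean of at least 10 had a deposited log2 ratio above 0, with a median of 0.11 against -0.02 over all genes, and with antimiR-452 10 of 22 did, with a median of -0.03 against -0.04. In BAT 7 of 19 were above 0 with antimiR-224, with a median of -0.04 against -0.05, and 11 of 20 with antimiR-452, with a median of 0.04 against 0.06. In each comparison 0 passed an adjusted p of 0.05, and 0 an unadjusted deposited p of 0.05. Of all genes 0% to 0.00343% passed the adjusted and 0.499% to 2.41% the unadjusted deposited threshold, so nothing is read from these counts. By limma before adjustment, Klc2 (0.0193) passed 0.05 in WAT with antimiR-224, 1 of 20 tested, beside 6.23% of all genes. Klc4 (0.0437) did so in WAT with antimiR-452, 1 of 20, beside 4.48%. In BAT 0 did.

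Klc1, the kinesin light chain that binds Clstn1, had 743 to 1004 in BAT antimiR-224 libraries, against 772 to 1183 in scramblemiR libraries, with overlap. In WAT it had 1486 to 1708 with antimiR-224, against 1429 to 1900.1 with scramblemiR. Klc2 had 492, 407, 416 and 347 in WAT antimiR-224 libraries, against 566, 667, 439.9 and 669.6 in scramblemiR libraries, with overlap. Apba2, an adaptor known to bind calsyntenins and App, had 3.27 to 53.4 in WAT antimiR-224 libraries, against 5.21 to 31.0 in scramblemiR libraries. The other genes with the smallest deposited p were Aplp2 in WAT with antimiR-224 (0.211), Klc4 (0.102) and Aplp1 (0.464) in WAT with antimiR-452, Adam10 (0.332) and Psenen (0.412) in BAT with antimiR-224, and Aph1b (0.298) and Aplp1 (0.323) in BAT with antimiR-452. Th, the rate-limiting enzyme of noradrenaline synthesis, was at 0 in all 4 WAT scramblemiR libraries and was 1.74, 7.77, 0 and 0 in the antimiR-224 libraries. In BAT it was 96.0 in antimiR-452 library 1 and 0 in the other antimiR-452 libraries, against 19.5, 0.972, 0 and 0 in scramblemiR libraries.

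Other S100 genes gave 0 calls past the adjusted threshold in any comparison. In BAT with antimiR-224, 6 of 9 measured genes of the S100 family list, which holds the receptor gene Ager as well, were above 0, as were 44.5% of all genes. The list's median log2 ratio was 0.28, against -0.05 over all genes. A deposited p under 0.05 was found for 1 of its genes and for 1.15% of all genes. S100a13, which takes part in unconventional secretion, had 1722, 1779.5, 3418 and 1365 with antimiR-224, against 739, 1032, 1223 and 1276 with scramblemiR. The groups did not overlap, as was the case for 2.62% of 14297 genes in that direction. For S100a13 the deposited p was 0.0343, the smallest of the list, and the limma adjusted p 0.736. S100a1, a close relative of S100b that can pair with it, had 5949, 5238, 9652 and 5039 with antimiR-224, against 2994, 4023, 4548 and 3988 with scramblemiR, without overlap and with a limma adjusted p of 0.736.

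In the same comparison 16 of 16 muscle genes were below 0, with a median of -1.83, and 12 of 14 mature adipocyte genes above 0, with a median of 0.25, and their part was not tested. With antimiR-452 in BAT 7 of 10 of the S100 list were above 0, as were 56.1% of all genes, with a median of 0.52 against 0.06. Library 1, which stood apart in muscle genes, is among those libraries, and S100a16 and S100a10 had the smallest deposited p, 0.137 and 0.192. In WAT the same list was not higher. With antimiR-224 5 of 10 were above 0, with a median of -0.09, and with antimiR-452 2 of 10 were, with a median of -0.25 against -0.04 over all genes. S100a1 had 3742 to 4221 in WAT antimiR-224 libraries, against 3407 to 6683 in scramblemiR libraries. S100a9, a neutrophil gene, had 8.73 to 11.1 in WAT antimiR-224 libraries, against 3.54 to 106.8 in scramblemiR libraries (deposited p 0.133). S100a11 had 2519.9 to 4499.5 in WAT antimiR-452 libraries, against 3452 to 6352 in scramblemiR libraries (deposited p 0.229). Ager, a receptor of S100b, had 31.6 to 142 in WAT antimiR-224 libraries, against 47.8 to 111 in scramblemiR libraries. In BAT it had 7.94 to 17.5 with antimiR-224, against 6.47 to 28.6 with scramblemiR.

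Lipid droplet genes, the setting in which Clstn3b is known, gave 0 calls in any comparison, and their medians had unlike signs in the depots. In WAT 11 of 15 lay below 0 with antimiR-224 (median of deposited log2 ratios -0.27, all genes -0.02), and 12 of 15 with antimiR-452 (median -0.09, all genes -0.04). In BAT 11 of 16 were above 0 with antimiR-224, with a median of 0.23 against -0.05, and 11 of 16 with antimiR-452, with a median of 0.18 against 0.06. Of all genes with a mean of at least 10, 47.1% were above 0 in WAT with antimiR-224 and 43.2% with antimiR-452. In BAT 44.5% and 56.1% were. Adjusted calls over all genes were 0% to 0.00343% in the deposited data. The difference between depots over the list was not tested. With antimiR-224 the mature adipocyte genes had the same signs, below 0 in 14 of 14 in WAT (median -0.47) and above 0 in 12 of 14 in BAT (median 0.25), and 16 of 16 muscle genes were below 0 in BAT. The part of these lists was not tested. Cidec, which fuses droplets, averaged 86349.7 in WAT antimiR-224 and 107616 in WAT scramblemiR libraries in the authors' deposited table (deposited p 0.395). In BAT the deposited means of Cidec were 21235 with antimiR-224 and 17076 with scramblemiR (p 0.54), and those of Cidea were 64879 with antimiR-224 and 41001 with scramblemiR (p 0.292).

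In WAT with antimiR-224 a deposited p under 0.05 was found for 2 of 15 measured lipid droplet genes and for 1.55% of all genes. After adjustment 0 of the list passed. Plin1, which coats droplets, had deposited means of 33867 with antimiR-224 and 57592 with scramblemiR (p 0.0139). Bscl2, or seipin, which shapes droplets, had a deposited p of 0.0388. Bscl2 had 6423, 5559, 7593 and 7702 with antimiR-224, against 9379.8, 7154, 9531 and 12519 with scramblemiR, with overlap. G0s2, an inhibitor of the lipase Pnpla2, had 8197, 6619, 11345 and 6555 in BAT antimiR-224 libraries, against 2824, 4878, 3017 and 5631 in scramblemiR libraries. Those groups did not overlap, as was the case for 2.62% of 14297 genes in that direction, and the limma adjusted p was 0.736. With antimiR-452 it had 1276, 8568, 13893 and 6307 in BAT, against 2842, 4899, 3016 and 5739 with scramblemiR, and library 1 was again the low one. Cideb, typical of liver and other epithelia, had 251, 479, 380.1 and 25.5 in WAT antimiR-452 libraries, against 20.4, 15.1, 18.9 and 103 in scramblemiR libraries (deposited p 0.00268, adjusted p 0.385). The 3 antimiR-452 libraries high in Cideb were those high in tubule and simple epithelium genes, which summed to 9290.1, 13555 and 11319 there and to 2206 in library 4, and their part was not tested.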

How the data were processed

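The labels describe Trizol extraction, oligo-dT selection and a directional library kit. The submitters' processing notes name GRCm38.p4, DESeq 1.10.1 and R 2.15.3, while no aligner, counting tool or annotation is given in the sources used here. Each of 4 deposited tables sets 1 inhibitor against scramblemiR in 1 tissue. Their columns, per the file headers, are a mean signal per group (normalized counts averaged over 4 libraries), the ratio of both means and its log2. The p-value and the adjusted p-value are also those the authors deposited. Symbols matched 99.42% to 99.48% of identifiers.

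Printed group means carry enough digits to be decoded into the whole reads of 4 libraries once size factors are solved, a step chosen after the data were seen. Inhibitor means above 9000 were left out, and several solutions were settled by the deposited p-value, recomputed within 5.6e-13. In the inhibitor groups 98.87% to 99.19% of genes were recovered. To check the step by p-value, 476 genes with a unique solution were solved again with the printing error widened 60-fold. The deposited p-value then picked 0 wrong solutions for the inhibitor libraries, while 1 to 6 genes a table could not be decided. Libraries cannot be tied to sample titles. Library pairs of a group differed by a chi-square per degree of freedom of at least 20.4, beyond sampling noise.

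Limma 3.58.1 (R 4.3.3, trend, robust) tested log2(normalized count + 1), which understates changes of low genes, for genes whose mean reached 10, with Benjamini-Hochberg adjustment at 0.05. On simulated data it called 81% to 88% of 4-fold changes but 12% to 25% of 2-fold ones, and made 2 to 6 false calls. The simulated libraries held no shared muscle, spermatid or epithelial differences, unlike these libraries, so those shares need not hold for these data. Permutation tests were exact, except 100000 permutations for correlations. The members and lists were chosen with earlier results of these data known, and the 12 less abundant muscle genes after their values were seen. Named beside the members are the genes most like them, the 2 genes of each list with the smallest deposited p, and Cidea, Cidec, Ager, Apba2, Klc1 and Th. Some relations and genes among those computed are not reported here.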

Additional observations from a re-analysis of the deposited data

Results flagged for a closer look

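Clstn1 in BAT with antimiR-452 had 1 library, at a normalized count of 1337, far from the other 3, at 709 to 721. This was the only one of 24 sets of 4 libraries, 1 for each member and group, in which a sample stood apart by the gap test used. Chance alone flags about 1 in 20 such sets. The same library had the highest Clstn3 of all BAT libraries, at 12298.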

How the results depend on the processing

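No paired analysis was possible because the recovered libraries cannot be tied to the replicate numbers of the sample titles. Of 530 values under other settings, 494 kept direction and side of the threshold. Another pseudocount, minimum mean or variance model changed no direction or call of the members. Leaving out 1 library gave -0.0737 to 0.0512 for Clstn1 in WAT with antimiR-224 and -0.022 to 0.19 with antimiR-452. In BAT it gave -0.83 to 0.19 for Clstn2 with antimiR-224. With antimiR-452 it gave -0.29 to 0.0174 for Clstn1, -0.83 to 0.20 for Clstn2, -0.74 to 0.55 for Clstn3 and -0.43 to 0.58 for S100b. For BAT minus WAT it gave -1.02 to 0.00773 (Clstn2, antimiR-224), -0.96 to 0.0656 (Clstn2, antimiR-452) and -0.10 to 1.19 (Clstn3, antimiR-452). For WAT antimiR-452 it gave 0 to 543 called genes, 543 without antimiR-452 library 4. Without the libraries high in spermatid genes, 1368 genes were called in WAT with antimiR-224, and Clstn3 was -2.08 there and 2.46 for BAT minus WAT; both contain the contrast on which it was chosen and are given with no test. Without the libraries high in muscle genes, 9 genes were called in BAT with antimiR-224, where Clstn2 was 0.62 and Clstn3 -0.0223. With antimiR-452 Clstn2 was then 0.34, Clstn3 0.10 and S100b 0.30, and Clstn2 was 0.43 and 0.21 for BAT minus WAT. Without the control libraries high in the brown adipocyte list, Clstn3 was -0.10 for antimiR-452, BAT minus WAT. Deposited log2 ratios were 0.17 for Clstn3 and 0.21 for S100b in BAT with antimiR-452, and 1 deposited gene was called in WAT with antimiR-224. The cause was not tested. The settings without such libraries were chosen after seeing the data. Depth limits Clstn2 in BAT (2 to 26 reads) and S100b in WAT (9 to 75).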

Other observations

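Marker lists of other cell types had unlike medians in both depots, a difference that was not tested. Macrophage genes were above 0 in 12 of 12 in WAT with antimiR-224, with a median deposited log2 ratio of 0.50, and below 0 in 11 of 12 in BAT with antimiR-224, with a median of -0.47. Stromal progenitor genes followed the same split, with medians of 0.39 in WAT and -0.33 in BAT. Endothelial genes stayed near 0, at -0.11 in WAT and 0.11 in BAT. Mesothelium genes were above 0 in 12 of 12 in WAT with antimiR-224, with a median of 0.72, and in 3 of 12 with antimiR-452, with a median of -0.26. Ciliated epithelium genes were above 0 in 14 of 14 with either inhibitor in WAT, with medians of 1.69 and 1.70. Sympathetic neuron genes had medians of 0.10 and 0.01 in WAT with antimiR-224 and antimiR-452. Adjusted calls were 0 in each of these lists.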
